A study of Mus musculus with 40 samples.

Results

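The fragments described here came from the High and the Low gate of a reporter screen for enhancer activity in mouse embryonic stem cells and their blood-forming progeny. They were chosen by the gate in the library title, which gave 20 of the 40 libraries, or 10 High and 10 Low libraries, paired by stage and replicate. A High library and a Low library of the same stage and replicate had been sorted from the same culture, and such a pair is called a sort. The High libraries held 107203 different fragments, the Low libraries 100680, and either gate 199179 of the 354627 different fragments of the whole series. The question was how strongly active fragments (High) differed from weakly active ones (Low), with the Medium gate as the step between and the Negative gate as the background.

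All cells derived from HM-1, a mouse embryonic stem cell line of 129/ola origin with a non-functional HPRT locus. Each carried a construct of a Tn5-cut open chromatin fragment, the HSP68 minimal promoter and the Venus-YFP reporter gene, recombined into that locus, and the plasmid libraries made from the chromatin of 5 stages were mixed before transfection. A fragment could therefore be tested at a stage in whose chromatin it had not been open. The stages were embryonic stem cells (ES), FLK1+ hemangioblast-like cells (HB), KIT+ TIE2+ CD41- hemogenic endothelium 1 (HE1), KIT+ TIE2+ CD41+ hemogenic endothelium 2 (HE2) and KIT+ TIE2- CD41+ hematopoietic progenitors (HP). The Negative gate was set on a line with the minimal promoter and no fragment, and the sources used here do not give the YFP limits between Low, Medium and High. Only inserted DNA was read, so the stages could not be checked against marker genes, and all cells of a replicate came from 1 selected pool of transfected cells.

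Enhancers are stretches of DNA that bind transcription factors and raise transcription from a promoter, often over a distance and in either orientation. In a minimal-promoter reporter the promoter alone is nearly silent, so the fluorescence of a cell reflects the fragment placed beside it together with the state of the cell and the noise of expression. In blood formation from embryonic stem cells, mesoderm gives rise to endothelium with blood-forming capacity, from which RUNX1, GATA2, TAL1 and PU.1 help to establish blood progenitors. TEAD factors and AP-1 act at many enhancers of the endothelial stages, and CTCF binds insulators and the anchors of chromatin loops.

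Sequences are shown first, since the results below return to them. They are of the regions with the lowest p in each direction and of the only fragments found in High and not in Low at every stage of a replicate. A region is a run of overlapping fragments from all libraries, and up to 300 bases around its most covered point are given, on the plus strand of GRCm38 (mm10) as in RefSeq. Capitals mark matches, on either strand, to any of the 13 motifs counted below. The first 3 windows are from regions that leaned to High, though no region passed the adjusted threshold. The Mfn1 window, chr3:32572564-32572817, lay in an intron of Mfn1 and held no match. The Gm13363 window, chr2:19909547-19909779, lay 82566 bp upstream of the curated start site of Gm13363, in a region that in GENCODE also holds the start of an Etl4 transcript, and bases of its untranslated exon were left out. It held 2 E-box matches and 1 match each for CEBP, RBPJ and KLF. The 1700122O11Rik window, chr17:48001972-48002271, was intergenic, 36165 bp downstream of that start site, and held 1 ETS match.
Mfn1 region: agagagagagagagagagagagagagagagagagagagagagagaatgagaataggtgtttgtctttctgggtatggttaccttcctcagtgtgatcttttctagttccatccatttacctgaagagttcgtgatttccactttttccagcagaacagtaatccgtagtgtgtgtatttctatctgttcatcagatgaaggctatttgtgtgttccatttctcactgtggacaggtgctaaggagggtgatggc
Gm13363 region: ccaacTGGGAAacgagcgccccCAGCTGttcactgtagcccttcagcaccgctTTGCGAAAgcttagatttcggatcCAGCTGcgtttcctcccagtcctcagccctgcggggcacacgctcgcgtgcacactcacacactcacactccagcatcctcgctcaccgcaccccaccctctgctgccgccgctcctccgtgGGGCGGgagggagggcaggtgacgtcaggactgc
1700122O11Rik region: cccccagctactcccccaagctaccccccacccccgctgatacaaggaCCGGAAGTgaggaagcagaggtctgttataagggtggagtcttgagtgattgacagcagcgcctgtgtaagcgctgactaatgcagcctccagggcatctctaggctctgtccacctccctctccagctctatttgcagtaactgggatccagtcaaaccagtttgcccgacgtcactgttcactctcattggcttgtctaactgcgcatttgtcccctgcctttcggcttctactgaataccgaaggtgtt

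The next 2 windows are from regions that leaned to Low. The Spns2 window, chr11:72469253-72469552, lay in an intron of Spns2, 5628 bp downstream of its start site, and held 1 SOX and 1 KLF match. The Aldh4a1 window, chr4:139599096-139599395, lay 23649 bp upstream of the Aldh4a1 start site in an intron of Iffo2, and held 1 match each for TEAD, SOX and the E-box. A further region that leaned to Low, nearest to the start site of B230216N24Rik, covered an untranslated exon of Pam and is not printed.
Spns2 region: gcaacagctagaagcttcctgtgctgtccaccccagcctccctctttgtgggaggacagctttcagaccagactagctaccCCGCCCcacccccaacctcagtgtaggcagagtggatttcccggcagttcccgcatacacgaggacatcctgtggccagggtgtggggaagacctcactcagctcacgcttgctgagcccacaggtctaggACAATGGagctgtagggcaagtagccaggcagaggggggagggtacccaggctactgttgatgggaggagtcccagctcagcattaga
Aldh4a1 region: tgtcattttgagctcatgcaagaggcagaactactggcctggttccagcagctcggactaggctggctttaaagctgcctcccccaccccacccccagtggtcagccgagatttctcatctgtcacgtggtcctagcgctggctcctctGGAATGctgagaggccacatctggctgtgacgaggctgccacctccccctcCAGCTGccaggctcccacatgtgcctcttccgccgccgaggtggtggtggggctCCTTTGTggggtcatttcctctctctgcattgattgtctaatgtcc

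The last 3 are whole fragments that were in the High gate and not in the Low gate at all 5 stages of replicate 1. They lay at chr15:79467065-79467167, between genes and 24973 bp upstream of Csnk1e (casein kinase 1 epsilon), at chr19:46308974-46309207, centred on an intron of Nfkb2 (a subunit of NF-kappaB), and at chr5:115489893-115490006, between genes and 5466 bp upstream of Sirt4 (a mitochondrial sirtuin). The Csnk1e fragment held 1 RUNX and 1 RBPJ match, the Nfkb2 fragment 1 RUNX match, and the Sirt4 fragment none.
Csnk1e fragment: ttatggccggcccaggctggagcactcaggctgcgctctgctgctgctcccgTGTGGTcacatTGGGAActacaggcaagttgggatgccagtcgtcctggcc
Nfkb2 fragment: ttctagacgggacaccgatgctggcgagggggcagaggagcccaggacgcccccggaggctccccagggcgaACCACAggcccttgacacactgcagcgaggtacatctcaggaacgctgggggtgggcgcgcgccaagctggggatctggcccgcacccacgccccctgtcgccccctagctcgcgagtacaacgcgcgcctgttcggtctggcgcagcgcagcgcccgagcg
Sirt4 fragment: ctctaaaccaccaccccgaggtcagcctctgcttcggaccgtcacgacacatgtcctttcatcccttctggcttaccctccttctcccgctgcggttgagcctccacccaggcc

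Libraries differed widely in depth, here the number of unique fragments. In the order ES, HB, HE1, HE2 and HP, the High libraries of replicate 1 held 10437, 16343, 39123, 18205 and 16508 fragments and the Low libraries 9461, 7468, 15458, 27370 and 4869. In replicate 2 the High libraries held 4487, 5931, 1413, 654 and 1796 and the Low libraries 1763, 5157, 31915, 2502 and 2215. The HE1 Low library of replicate 2 stood apart, with 66.2% of its fragments over 300 bp, while the other Low and High libraries held 3.12% to 32.8%. At HP in replicate 1 no identical fragment was shared by any of the 4 gates, which set that sort apart from the other 9. In HE1 of replicate 1 the Medium and Negative libraries shared 69.8% of the smaller one (Wilson 95% interval 69.3% to 70.2%), which touches the values of Medium there. Replicate 1 and replicate 2 also differed for both gates, with a GC content of 55.8% to 56.1% against 50.0% to 50.2% and a median distance to the nearest start site of 16.3 to 16.4 kb against 23.7 to 24.4 kb, so each result is given within the replicates where they differ.

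High fragments were on average shorter than Low fragments of the same sort, though the difference was not larger than the spread between sorts. The median length was 179.6 ± 32.0 bp in High, 194.5 ± 45.9 bp in Medium and 205.1 ± 52.1 bp in Low (SD, n = 10 libraries each), and 190.9 ± 15.6 bp in Negative. In replicate 1 the High medians were 182, 169, 149, 158 and 126 bp from ES to HP, against 186, 184, 163, 156 and 178 bp in Low. High was shorter at every stage but HE2, with the widest gap at HP. In replicate 2 the High medians were 185, 183, 212, 239 and 193 bp, against 219, 222, 339, 214 and 190 bp in Low. Here High was shorter at ES, HB and HE1 and longer at HE2 and HP. The mean paired difference was −25.5 ± 42.3 bp (SD), with High shorter in 7 of 10 sorts (two-sided exact permutation test over the 10 pairs, p = 0.0586, adjusted p = 0.234 over the family of 12 measures). It was −16.6 bp within replicate 1 and −34.4 bp within replicate 2 (exact p = 0.125 and 0.25, where 5 pairs cannot go below 0.063). The Medium value fell between those of High and Low in 6 sorts. Without HE1 of replicate 2, whose Low library stood apart, the difference was −14.2 bp (exact p = 0.117), and without HE2 of replicate 2 it was −31.1 bp (exact p = 0.0195).

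**Figure D1:**
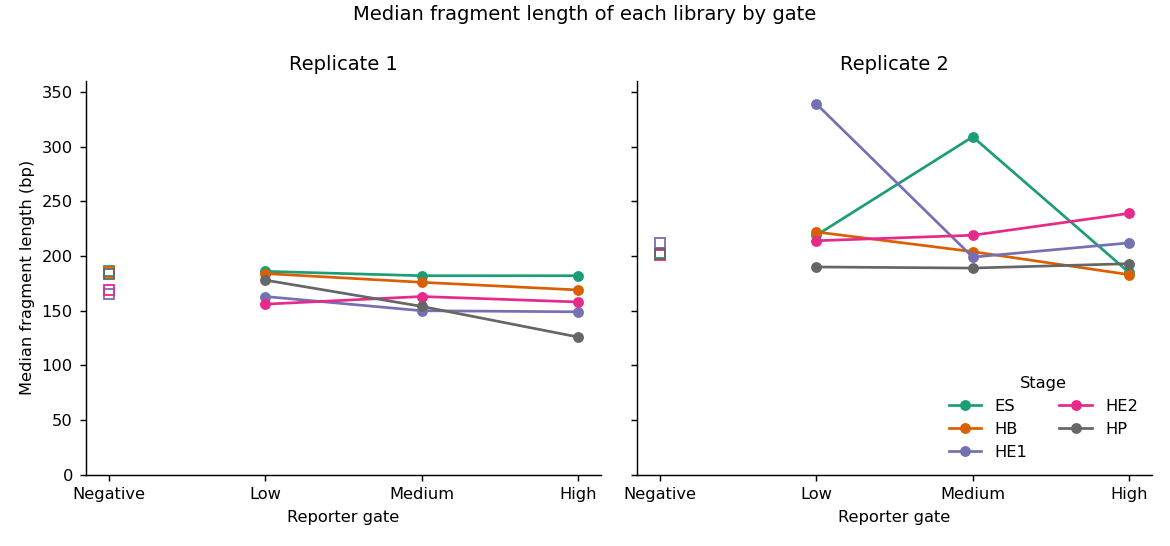
Median fragment length in bp (y axis) by YFP gate (x axis) for each stage, in replicate 1 (left) and replicate 2 (right), where lines join the Low, Medium and High libraries of a sort and open squares are the Negative libraries. In replicate 1 High lies below Low at every stage but HE2, down to 126 bp at HP, while in replicate 2 they cross, with 339 bp in the HE1 Low library.

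The shares of short and long fragments differed in the same direction. Fragments under 150 bp, about the span of DNA wound on a nucleosome or less, made up 40.5% of High and 33.3% of Low fragments, with 36.0% in Medium and 35.1% in Negative. The difference was 7.19 ± 9.75 percentage points (SD, n = 10 pairs, exact permutation p = 0.0527, adjusted p = 0.234). Fragments over 300 bp made up 13.8% of High, 16.9% of Medium and 21.2% of Low, and the Negative level was 13.9%. Quartiles moved the same way, with the lower quartile at 115.8 bp in High and 135.4 bp in Low and the upper at 247.9 and 274.75 bp. Within single regions, which hold the place in the genome fixed, High fragments were 6.01 ± 11.2 bp shorter than Low fragments of the same sort (exact permutation p = 0.0312, adjusted p = 0.234). By sort this difference, High minus Low, was 0.40, −3.27, −6.36, 2.39 and −36.4 bp in replicate 1 over 2392 to 7115 regions, and −3.07, −2.84, −10.0, 0.58 and −1.58 bp in replicate 2 over 160 to 1037 regions. It was negative in 7 of 10 sorts, and HP of replicate 1 gave most of the mean. Without that sort it was −2.64 bp (exact p = 0.063), and with fragments found in both gates left out it was −26.9 bp (exact p = 0.00781).

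In position relative to genes, High and Low fragments differed by less than the spread between sorts. The median distance from a fragment's centre to the nearest curated start site was 20400 ± 4622 bp in High and 20007 ± 4097 bp in Low, with 20012 bp in Medium and 19868 bp in Negative. Introns held 44.4% of High and 44.65% of Low fragments, and the space between genes 48.7% and 48.6%. Exons held 6.91% and 6.75%, against 7.01% in Negative. The paired differences were 392.95 ± 1459 bp in distance (74.7 bp without HE1 of replicate 2 and 138.2 bp without ES of replicate 2), −0.26 ± 0.95 percentage points in introns, 0.09 ± 0.71 between genes and 0.17 ± 0.73 in exons (n = 10 pairs, exact permutation p = 0.443, 0.395, 0.684 and 0.486, all adjusted p = 0.953). More than 100 kb from any start site lay 12.2% of High and 12.1% of Low fragments (exact p = 0.953). GC content was 53.06% in High and 53.02% in Low (exact p = 0.838). A p above the threshold does not show that the gates were alike.

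Some of these values moved apart in one replicate. In exons High exceeded Low by 0.646 percentage points in replicate 1, at every stage but ES, and lay 0.314 points below it in replicate 2. The replicates differed in this (exact permutation of the replicate labels over the 10 sorts, p = 0.0397). Fragments within 1500 bp of a start site were few, at 1.39% of High and 1.56% of Low. They were fewer in High in 8 of 10 sorts, and in all 5 of replicate 2, where the means were 0.581% and 0.886%. CpG dinucleotides per kb were also lower in High in all 5 sorts of replicate 2, with means of 16.1 and 17.4, but higher on average in replicate 1, with 32.2 and 31.0. The X chromosome held 0.958% of High and 1.07% of Low fragments in replicate 1, lower in High at all 5 stages, and 1.99% and 2.13% in replicate 2, where it was higher in High in 3 of 5 sorts. Soft-masked repeats covered 13.5% of High and 14.1% of Low bases. These last 4 measures were described with no test.

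**Figure D2:**
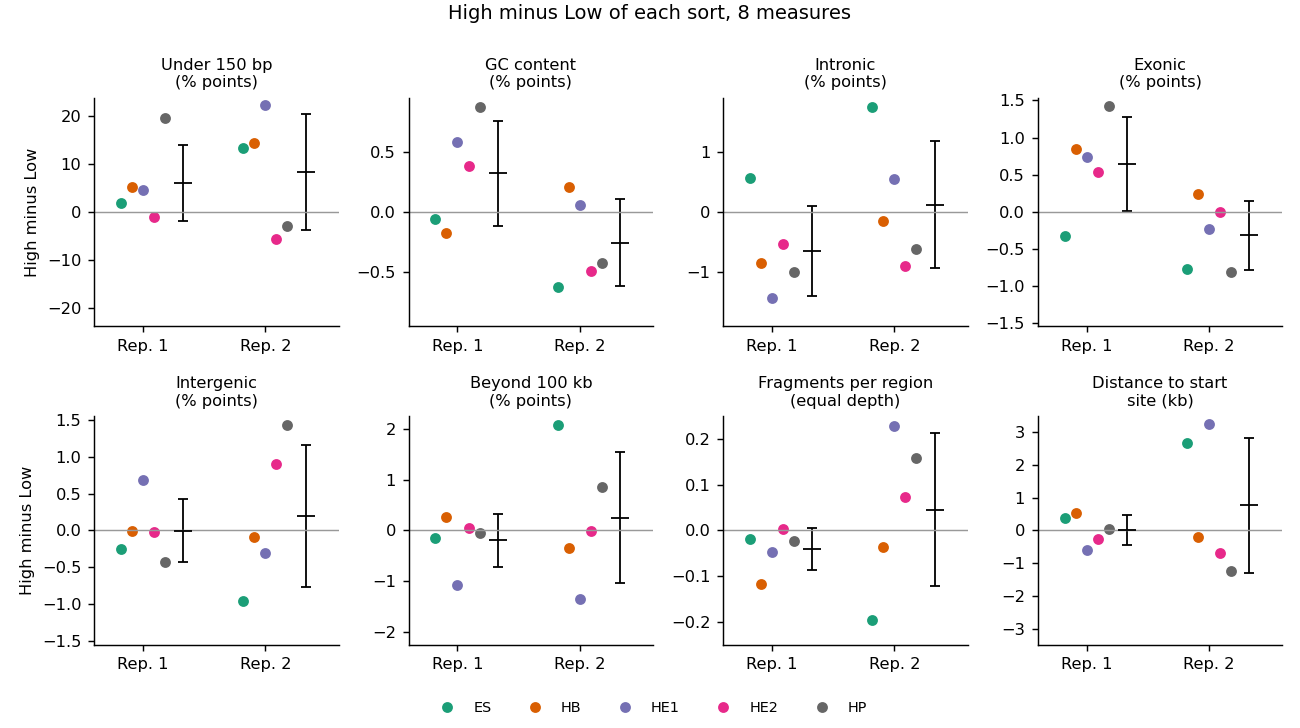
High minus Low for 8 measures, each in its own panel and unit, with 1 point per sort by replicate and the mean ± SD of each replicate beside the points. Most points scatter around 0, and the length measures lean to shorter High fragments in 7 of 10 sorts.

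Region density differed between the gates by less than the spread between sorts. With the Low, Medium and High libraries of a sort thinned to the smallest of them, a region held 1.362 ± 0.279 High fragments and 1.359 ± 0.309 Low fragments, and 1.359 in Medium (difference 0.00247 ± 0.124, exact permutation p = 0.951, adjusted p = 0.953). In replicate 1 High regions held 1.621, 1.445, 1.698, 1.839 and 1.284 fragments from ES to HP, and Low regions 1.640, 1.561, 1.744, 1.836 and 1.308. High was the sparser at all stages but HE2. In replicate 2 the values were 1.040, 1.059, 1.279, 1.108 and 1.245 in High and 1.236, 1.095, 1.051, 1.036 and 1.086 in Low. There High was denser at HE1, HE2 and HP. Fragments with another of the same library within 5 bp at both ends, which PCR or trimming can produce from 1 molecule, made up 10.7% of High and 8.35% of Low at equal depth (exact p = 0.646). In replicate 2 this share reached 33.7% in HE1 High, 30.2% in HP High and 30.4% in ES Low. With near copies collapsed the difference in fragments per region was −0.0152 (exact permutation p = 0.123).

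The same fragment was often found in both gates of a sort in replicate 2 and rarely in replicate 1. Identical fragments of Low and High made up 2.26%, 2.76%, 5.90%, 3.53% and 0% of the smaller library in replicate 1, from ES to HP, where the 0 of 4869 at HP allows up to 0.0616%. In replicate 2 they made up 23.3%, 20.5%, 31.9%, 31.0% and 9.30%. The Wilson 95% intervals ran from 1.98% to 2.58% for ES of replicate 1 and from 27.6% to 34.7% for the shallowest sort, HE2 of replicate 2, and cover counting error only. A step from Low over Medium to High was not seen in this measure. Low and Medium shared 2.79% on average in replicate 1 and 28.8% in replicate 2, Medium and High 3.24% and 15.0%, and Low and High, the distant pair, 2.89% and 23.2%. The adjacent pairs exceeded the distant pair by −0.593 ± 5.27 percentage points (n = 10 sorts, exact permutation p = 0.891). As the shared part of all fragments of both libraries, in place of the smaller one, the same contrast was 1.10 points (exact p = 0.00391). Negative shared 2.62% and 17.4% with High and 2.87% and 36.0% with Low in the replicates, so in replicate 2 Low shared more with Negative than with High.

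Regions were shared far more often than identical fragments in replicate 1, and only a little more often in replicate 2. Of the regions in the library with fewer of them, 52.1%, 66.3%, 80.3%, 69.9% and 64.2% also held a fragment of the other gate in replicate 1, and 27.9%, 22.7%, 36.9%, 33.9% and 11.2% in replicate 2. At equal depth, High and Low shared 18.2% of their joint regions, Low and Medium 19.5%, and Medium and High 18.4%. Between High and Low the share was 31.4% in replicate 1 and 5.05% in replicate 2. The adjacent gates exceeded the distant ones by 0.744 ± 1.26 percentage points, in 8 of 10 sorts (exact permutation p = 0.0664).

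A fragment found at 2 stages of a replicate was in the same gate at both more often than random exchange of the gates gave. Of 19399 occurrences of an identical fragment in High or Low at both stages of a pair, 67.1% were in the same gate. This share also rises with unequal gate totals, which the odds ratio allows for. It was 86.7% between HE1 and HP of replicate 2, where the log2 odds ratio of keeping the gate was −0.30. The odds ratio was taken for each of the 10 stage pairs of each replicate, leaving out fragments in both gates of a sort, and its log2 was 0.85 ± 1.01 on average (SD over 20 stage pairs) and above 0 in 17 of 20. Exchanging High and Low within sorts gave p = 0.00391, the smallest p that this exact permutation test can give. In replicate 1 the mean was 0.95, with 2.41 between HE1 and HP, 2.37 between HB and HP and 1.73 between HB and HE1. The pairs with HE2 were the lowest there, with −0.19 against HB, 0.09 against HP, 0.39 against ES and 0.47 against HE1. In replicate 2 the mean was 0.74, with 2.84 between HE1 and HE2 and −1.11 between ES and HE1, where the standard error from the counts alone was 0.84. Stage pairs share libraries, so they are not independent, and within 1 replicate the test gave p = 0.063 and 0.125 (exact permutation). Within 50 bp length classes the mean was 0.77, above 0 in 16 of 20 (exact p = 0.00391), so the persistence was nearly as large among fragments of like length.

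The other gates were compared in the same way. Medium against Low gave a mean log2 odds ratio of 0.10 ± 1.45 (SD over 20 stage pairs, exact permutation p = 0.789), with values from −4.14 to 3.70 in replicate 2, and High against Medium −0.05 ± 1.21 (exact p = 0.805). Negative against Low gave 0.97 ± 1.10, above 0 in 17 of 20 stage pairs (exact p = 0.00391). Its mean was 0.33 in replicate 1, above 0 in 7 of 10, and 1.6 in replicate 2, above 0 in 10 of 10. High against Negative gave 1.40 ± 1.41 (exact p = 0.00781). Differences between these comparisons were not tested. When different fragments of the same region took the place of identical ones, with near copies left out and each region assigned to its majority gate, the mean was −0.09 ± 0.75, above 0 in 8 of 20 (exact p = 0.652). The difference between identical fragments and different fragments of a region was not tested.

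**Figure D3:**
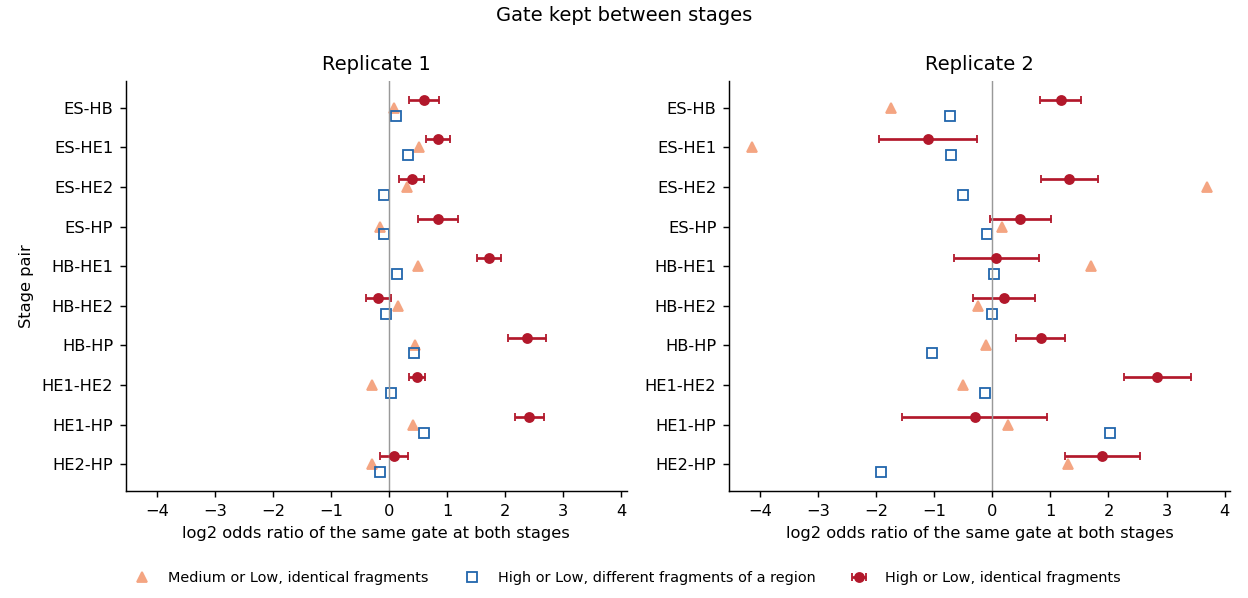
Log2 odds ratio (x axis) that a fragment has the same gate at both stages of a pair (y axis), for each replicate. Red circles with counting standard errors are identical fragments in High against Low, triangles Medium against Low, and open blue squares different fragments of the same region. The red circles lie above 0 in 17 of 20 stage pairs, and the blue squares in 8.

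Counted over the 3 active gates, High at both stages was seen 5277 times in replicate 1 against 5100 expected from the gate totals of each stage pair, a ratio of 1.03, and 89 times against 67.2 in replicate 2, a ratio of 1.32. Low at both stages had ratios of 1.18 and 1.02. Medium at both stages lay below expectation, with 0.916 and 0.957. Changes between Medium and High, in either order, had ratios of 1.03 to 1.20 over the replicates, and changes between Low and Medium 0.983 to 1.10. A change between the extremes was rarer than expected, with ratios of 0.838 for High then Low and 0.838 for Low then High in replicate 1, and 0.950 and 0.828 in replicate 2. Of the fragments in High and not in Low at a stage, 87800 in replicate 1 were so at 1 stage, 4619 at 2, 487 at 3, 32 at 4 and 3 at all 5. For Low these were 60324, 1107, 34, 3 and 0. In replicate 2 the order turned, with 11608, 176, 11, 0 and 0 for High and 34202, 2176, 661, 168 and 11 for Low, where the HE1 Low library was the deepest. In replicate 1 the median lengths of these fragments were 157, 128, 114, 104 and 114 bp from 1 to 5 stages for High and 170, 155, 164.5 and 167 bp from 1 to 4 stages for Low. The High medians of replicate 2 were 178, 249.5 and 341 bp from 1 to 3 stages and the Low medians 328, 313.5, 211, 186.5 and 147 bp from 1 to 5. The lengths thus fell with the number of stages in Low of replicate 2, rose in High of replicate 2 and had no single order in the other two sets.

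The 3 fragments in High and not in Low at all 5 stages of replicate 1, near Csnk1e, in Nfkb2 and near Sirt4, were 103 to 234 bp long. They were in no Medium and no Negative library of that replicate. Only the Sirt4 fragment was found in replicate 2. The 11 fragments in Low and not in High at all 5 stages of replicate 2, nearest to Des, Emid1, Epha6, Mybl2, Armc1, Unc5c, Gm42517, Gm15860, Lrp3, Mir181c and Adat1, were 78 to 232 bp long. They lay in 2 to 5 of the 5 Negative libraries and 0 to 4 of the 5 Medium libraries of that replicate. The fragments of both sets were picked for this pattern after their values were seen, so the counts are a description.

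The gate of a region was not seen to recur in the other replicate. Among 3584 regions found at the same stage in both replicates and assigned to their majority gate, 34.3% had the same gate in both. HE1 gave 1781 of them, and 1489 of these were High in replicate 1 and Low in replicate 2. There the HE1 Low library held 31915 fragments and the High library 1413. The share thus depends on the gate totals, which the odds ratio allows for. The log2 odds ratio was −0.27 ± 0.62 (SD over the 5 stages), above 0 at 2 of them. Over all 25 combinations of a stage of replicate 1 with a stage of replicate 2 it was −0.20 ± 0.47, above 0 in 11. At equal depth, the sharing of regions between like gates minus that between unlike gates was −0.0154 percentage points (exact permutation over the 5 stages, p = 0.688, where the smallest possible p is 0.063). By stage it was −0.0470, 0.275, −0.0137, −0.0362 and −0.255, so only HB was above 0. The replicates shared few regions at this depth, 0.527% to 3.30% of the joint regions of like gates, which limits what could be seen.

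Binding motifs were counted in the fragment sequences on both strands as matches per kb, with the letters TGANTCA for AP-1, TGTGGT for RUNX, GAGGAAGT for PU.1, CCGGAAGT for ETS, AGATAAG for the GATA factors, GGAATG for TEAD, ACAANGG for SOX, ATGCAAAT for OCT, CAGCTG for the E-box, TTGCNNAA for CEBP, TGGGAA for RBPJ and GGGCGG for KLF, and with a longer core for CTCF. The PU.1 and ETS letters overlap. Of these 13 motifs, 0 (0%) passed the adjusted threshold and 0 had an unadjusted p under 0.05 by the exact permutation test. CTCF came closest, with 0.370 matches per kb in High, 0.339 in Medium, 0.319 in Low and 0.309 in Negative, higher in High in 7 of 10 sorts (exact permutation p = 0.0566, adjusted p = 0.736). In replicate 1 the High libraries had 0.565, 0.570, 0.528, 0.451 and 0.730 CTCF matches per kb from ES to HP, and the Low libraries 0.604, 0.515, 0.422, 0.423 and 0.463. High was above Low at every stage but ES, most at HP, where High fragments were shortest. The High libraries of replicate 2 had 0.207, 0.187, 0.100, 0.156 and 0.203 and the Low libraries 0.146, 0.152, 0.116, 0.170 and 0.178, so High was lower at HE1 and HE2. The mean difference was 0.0509 per kb, and 0.0268 without HP of replicate 1. Among fragments of 100 to 200 bp alone the difference was 0.0922 per kb (exact p = 0.0234, adjusted p = 0.305). Of all fragments of the series, 7.23% held a CTCF match, 10.2% an AP-1 match and 14.7% a RUNX match.

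The motifs of the blood and endothelial factors did not pass the test either. AP-1 had 0.518 matches per kb in High and 0.496 in Low, RUNX 0.853 in each, TEAD 0.665 and 0.662, GATA 0.203 and 0.213, and PU.1 0.120 and 0.128. Their Negative levels were 0.509, 0.884, 0.688, 0.211 and 0.129. By replicate the signs differed for most of them. RUNX had 0.844 in High and 0.878 in Low in replicate 1, and 0.862 and 0.828 in replicate 2. AP-1 had 0.615 and 0.618, then 0.421 and 0.375, GATA 0.234 and 0.263, then 0.171 and 0.163, and TEAD 0.684 and 0.659, then 0.645 and 0.665. KLF, a GC-rich motif, was higher in High in 4 of 5 sorts of replicate 1, with means of 1.51 and 1.46 per kb, and in none of replicate 2, with 0.441 and 0.575. The replicates differed in this (exact permutation p = 0.0238), as they did for CpG dinucleotides in direction.

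Fragments were next assigned to the nearest start site and counted for 9 lists of genes. Genes of the mesoderm and of the heart took 0.102% of High, 0.129% of Medium, 0.145% of Low and 0.180% of Negative fragments, and were lower in High in all 10 sorts. In replicate 1 the High shares were 0.0862%, 0.171%, 0.0946%, 0.0769% and 0.176%, and the Low shares 0.116%, 0.187%, 0.104%, 0.0986% and 0.185%. In replicate 2 the High shares were 0.111%, 0.118%, 0.0708%, 0%, at a depth of 654 fragments, and 0.111%, against 0.113%, 0.175%, 0.166%, 0.0799% and 0.226% in Low. These shares rest on 132 High and 148 Low fragments of 15 genes, so most gaps were of a few fragments. The mean difference was −0.0434 percentage points, −0.0172 in replicate 1, −0.0696 in replicate 2 and −0.0222 with near copies collapsed. Blood transcription factor genes took 0.309% of High and 0.397% of Low fragments, higher in High in 3 of 10 sorts, and blood surface genes 0.0586% and 0.0931%, also in 3. Endothelial genes took 0.391% of High and 0.284% of Low, higher in High in 7 sorts, with 0.360% in Negative. The difference was 0.00138 percentage points in replicate 1 and 0.213 in replicate 2, where HE2 High and HP High held 5 and 12 such fragments. Pluripotency genes took 0.201% and 0.175%, higher in High in 0 of 5 sorts of replicate 1 and in all 5 of replicate 2.

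The other 4 lists held no steady shift. Genes of AP-1, TEAD and the Hippo pathway took 0.404% of High and 0.385% of Low fragments, higher in High in 7 of 10 sorts, and genes of signalling feedback 0.409% and 0.449%, in 4. Matrix and adhesion genes took 0.169% and 0.186%, higher in High in 4 sorts, and genes of neuronal synapses, a lineage outside this differentiation, 0.20% and 0.232%, in 3.

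**Figure D4:**
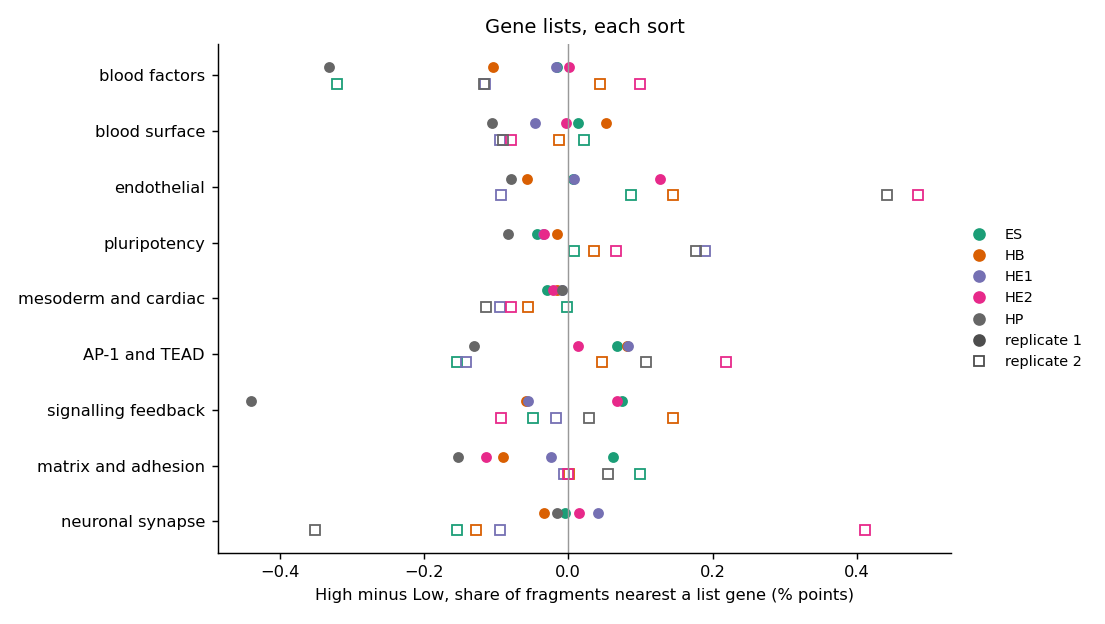
High minus Low in the percent of fragments nearest to the genes of each of 9 lists (x axis, percentage points), with 1 point per sort, filled for replicate 1 and open for replicate 2. All 10 points of the mesoderm and cardiac list lie below 0, and those of the other lists lie on both sides.

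Each gene with at least 20 High and Low fragments in at least 3 sorts was tested for the share of its fragments in High against the share that the library depths gave. Of 3474 genes tested, 6 (0.173%) passed an adjusted p of 0.05, 5 (0.144%) higher in High and 1 (0.0288%) lower. An unadjusted p under 0.05 was reached by 216 genes (6.22%), 110 higher (3.17%) and 106 lower (3.05%). Leaving out HB, HE1 or HE2 of replicate 2 left 3, 2 and 3 genes called. With each gene's own dispersion between sorts where that was higher, with limma, and without replicate 2, 0 genes were called. Among the 78 list genes tested none passed the adjusted threshold. Among all genes tested 1733 had a log2 odds above 0, with a median of −0.00. The median of blood factors was −0.15, with 4 of 12 above 0, of mesoderm and cardiac genes −0.19, with 1 of 5, of matrix and adhesion genes −0.24, with 1 of 7, of blood surface genes −0.36, with 1 of 3, and of pluripotency genes 0.50, with 3 of 5. Endothelial genes had 0.03, AP-1 and TEAD genes −0.02, signalling feedback −0.05 and synapse genes 0.06.

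Single genes of these lists leaned to a gate without passing the adjusted threshold. Runx1, the factor required for blood to leave the endothelium, had 53 High and 71 Low fragments where 62.6 High were expected, a log2 odds of −0.55 ± 0.30 (SE), and lay below expectation in 9 of 10 sorts (adjusted p = 0.793). Tal1, a factor of the earliest blood and endothelial cells, had 21 High and 31 Low fragments where 29.4 High were expected, below in 6 of 6 sorts, with a log2 odds of −1.09 ± 0.45 (adjusted p = 0.634), and is named after its value was seen. Klf4, a pluripotency factor, had 56 High fragments where 69.0 were expected and was below in 8 of 10 sorts. Vgll4, a cofactor that competes with YAP for TEAD, had 65 High and 33 Low fragments where 55.7 High were expected, above expectation in 10 of 10 sorts, with a log2 odds of 0.67 ± 0.35 (adjusted p = 0.776). Fos, an AP-1 subunit with the most fragments of its list, had 150 High fragments where 151.0 were expected. The receptor gene Kdr, which encodes the FLK1 marker of the HB sort, had 70 High where 66.75 were expected, and Itga2b, which encodes CD41, had 28 where 30.8 were expected. Meis1 had 75 where 76.9 were expected, Zfpm1 60 where 59.6 were, Egfl7 82 where 81.8 were, Socs3 137 where 140.8 were and Sparc 80 where 85.3 were. Tead1 had 58 where 64.7 were expected, Hspg2 51 where 58.3 were and Col4a2 50 where 55.2 were, and none of these passed the threshold.

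Among the genes with more High fragments than expected, Chmp4b, which encodes an ESCRT-III subunit, had most of its High fragments at ES and HE1 of replicate 1. Replicate 2 held 2 of its High fragments and 1 of its Low fragments. It had 47 High and 9 Low fragments where 33.1 High were expected, a log2 odds of 1.95 ± 0.55 (SE) and an adjusted p of 0.0375, by the quasi-binomial test moderated with limma. Its High fragments numbered 16, 3, 17, 4 and 5 at the stages of replicate 1, and its Low fragments 3, 1, 1, 2 and 1, and it was above expectation in 6 of 7 sorts. The call held in 6 of 10 repeats that left out a sort each. Far2, a fatty acyl-CoA reductase gene, had 21 High and 10 Low fragments where 8.75 High were expected (log2 odds 3.93 ± 0.65, adjusted p = 7.83e-06). Of its High fragments 15 came from HE1 of replicate 2, and it was below expectation in 2 of 5 sorts. Its raw dispersion between sorts was 31.8, against the 1.10 used. With its own dispersion the quasi-binomial p was 0.329, and the limma p was 0.225. Its fragments lay 43.4 to 106 kb from the start site, and its 28 different fragments came to 16 when ends within 5 bp were joined. The gene 4930533K18Rik had 18 High and 2 Low fragments (adjusted p = 0.0151), 17 of the High ones in HP of replicate 2. Tmc6, a transmembrane channel-like gene, had 14 High and 11 Low where 5.78 High were expected (adjusted p = 0.0115). In HE1 of replicate 2 it had 7 High and 9 Low, and it was above expectation in 3 of 5 sorts and below in 2. Its raw dispersion was 6.87, and with its own dispersion the quasi-binomial p was 0.146. Mfn1, which encodes a GTPase of mitochondrial fusion, had 17 High and 23 Low fragments where 7.77 High were expected (adjusted p = 0.0375), all in 1 region of HB, HE1 and HE2 of replicate 2, and its 18 different fragments came to 2 when near copies were joined. With near copies joined, these 4 genes fell below the 20 fragments needed for a test, and Chmp4b had an adjusted p of 0.335.

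Of the genes with fewer High fragments than expected only Arhgap31, which encodes a GTPase-activating protein for Rac and Cdc42, passed the threshold. It had 8 High and 21 Low fragments where 18.4 High were expected, with a log2 odds of −2.20 ± 0.61 and an adjusted p of 0.0478 by the same test, and lay below expectation in 6 of 6 sorts. With near copies joined its adjusted p by that test was 0.117, and with limma it was 0.823. Its High fragments numbered 0, 1, 6, 0 and 1 at the stages of replicate 1 and its Low fragments 0, 3, 5, 6 and 5 there. The call held in 3 of 9 repeats that left out a sort. Afap1l1, an actin-associated protein gene, had 23 High and 40 Low fragments where 37.7 High were expected and was below in 6 of 6 sorts (adjusted p = 0.069). Mylip, which encodes a ubiquitin ligase for the LDL receptor, had 8 and 22 and was below in 9 of 10, and Lncenc1, a non-coding RNA gene of embryonic stem cells, 11 and 28 and was below in 9 of 9. The others of the 10 with the lowest p in this direction were 4930413E15Rik with 3 High and 20 Low fragments, Cryz with 2 and 19, B230216N24Rik with 12 and 29, Pik3c2b with 25 and 40, Aldh4a1 with 41 and 55, and Gm15708 with 8 and 24. In the High direction, Gm13363 followed with 23 High and 2 Low fragments, all 23 in replicate 1, where it had 0 Low (adjusted p = 0.0666). Next came Pkdcc with 36 and 17, 1700122O11Rik with 31 and 6, Raly with 13 and 7 and Ppp1r21 with 30 and 6, and these had adjusted p from 0.112 to 0.25.

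**Figure D5:**
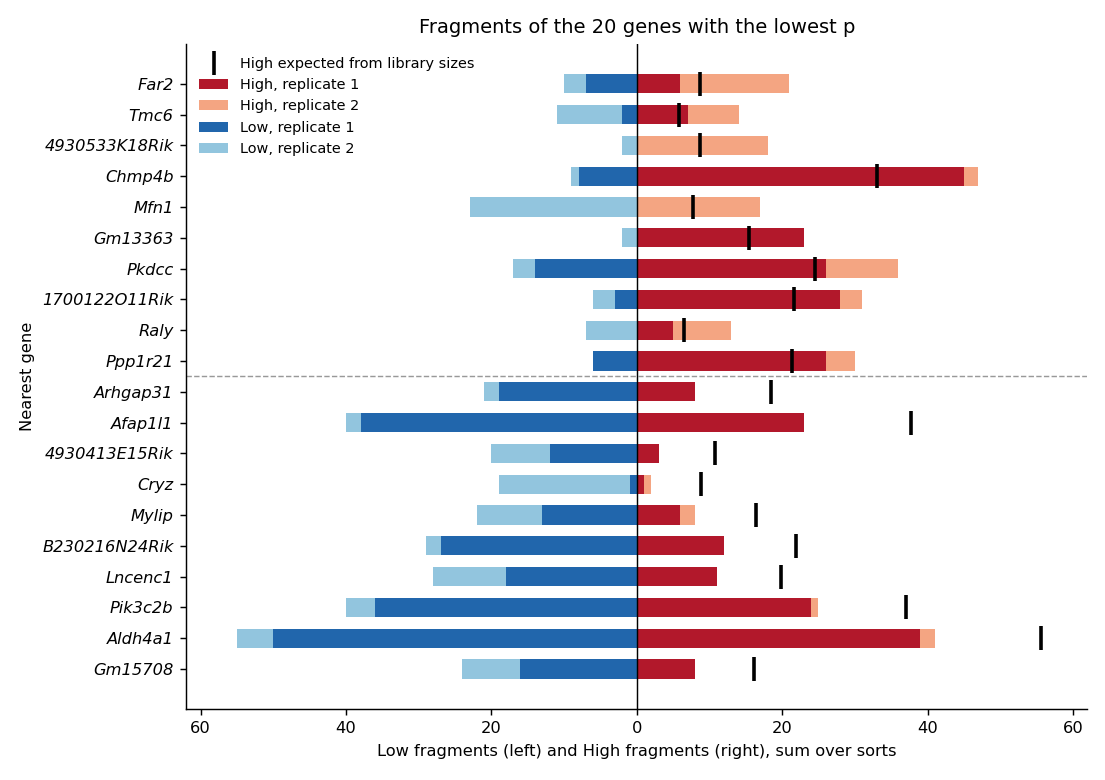
Numbers of Low fragments (left) and High fragments (right) nearest to each of the 20 genes with the lowest p in either direction, stacked by replicate, with a black tick at the High number expected from the library depths. Chmp4b, with 47 High fragments against 33.1 expected, and Aldh4a1, with 41 against 55.6, hold the most fragments of their direction.

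No single region passed the adjusted threshold. Of 1811 regions tested by the same test, 0 (0%) were called, 110 (6.07%) had an unadjusted p under 0.05, 52 higher in High (2.87%) and 58 lower (3.20%), and the lowest adjusted p was 0.0752. The Gm13363 region, whose window was printed above, held 23 High and 1 Low fragments where 15.4 High were expected, with 1, 2, 8, 4 and 8 High fragments at the stages of replicate 1 and none of Low. The 1700122O11Rik region held 19 High and 1 Low where 12.3 High were expected, above expectation in 6 of 6 sorts, the region of Mtf1, a metal-responsive transcription factor gene, 22 and 2, and the region downstream of Chmp4b 22 and 3. The Mfn1 region held all 17 High and 23 Low fragments of that gene. On the Low side, the region in the Pam exon held 12 High and 27 Low fragments, and the Spns2 region, in the gene of a sphingosine-1-phosphate transporter, 8 and 19. The Aldh4a1 region held 33 and 44 where 46.2 High were expected, below in 6 of 7 sorts, the Csgalnact1 region 8 and 17, and the region upstream of Nrn1 0 and 31, 27 of them in HE1 of replicate 2 and reduced to 4 when near copies were joined.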

How the data were processed

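Fragments carried by the reporter were amplified from sorted cells and sequenced as read pairs. By the study's methods, the authors trimmed the reads (Trim Galore), mapped them to mm10 with bowtie2, kept well-mapped proper pairs and reduced repeated fragments to 1. Tool versions are not given in the sources used here. It is also not stated whether the described filters (a background library of untransfected cells, open chromatin, distance from promoters) had been applied to these lists. The deposited values are start and end coordinates of unique fragments, with no read count, so that each fragment weighs the same within its library. Depth is the number of fragments, from 654 to 39123 in the High and Low libraries. Since PCR without molecular identifiers can give several fragments per molecule, Wilson 95% intervals and upper limits of 3 counts for a share of 0 reflect counting error alone.

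High and Low of a sort came from the same culture, so the sort is the pair, and each replicate was 1 pool, so replicate numbers pair all stages. Measures were compared by exchanging High and Low within the 10 pairs in all 1024 arrangements (two-sided exact permutation test, smallest p 0.00195), adjusted by Benjamini-Hochberg over 12 measures or 13 motifs. Sharing and persistence of gates were tested over sorts in the same way. Start sites (31601 curated sites of 26180 RefSeq genes), places by the fragment's midpoint and sequence came from GRCm38, with untranslated exons from GENCODE vM21, and 23 fragments on scaffolds were left out. Genes and regions (75060 in all) were tested on High out of High and Low fragments over sorts with a quasi-binomial model. Its dispersion was moderated with limma 3.58.1 and no lower than 1, with 0.5 added for log odds and Benjamini-Hochberg adjustment over all tested. The moderated dispersion came to 1.10 for every named gene, so the spread between sorts of a single gene did not enter its p. Raw dispersions of the named genes ran from 0.280 (Afap1l1) to 31.8 (Far2). Named are the 10 genes and 5 regions with the lowest p in each direction and, for lists, members with most fragments. Thinned values are means of 20 seeded draws. Scripts were tested on simulated data and ran in Python 3.11.15 and R 4.3.3.

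The measures, gene lists, motifs and tests were chosen with earlier results of these data known. Alternatives were other tests, thresholds and units, leaving out sorts or replicates, dropping the pairing for measures and motifs, and pooling the replicates for genes and regions. The persistence of other gate pairs, within length classes and over regions, the sharing of regions and the use of a gene's own dispersion were added after the data were seen.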

Additional observations from a re-analysis of the deposited data

Results flagged for a closer look

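In the difference of median length between High and Low, HE1 of replicate 2 was the lowest of the 10 sorts, at −127 bp, and the gap to the next sort was 0.49 of the whole range. Its Low library was the one with 66.2% of fragments over 300 bp. In the length difference within regions, HP of replicate 1 was the lowest, at −36.4 bp, with a gap of 0.680 of the range. That sort was also the one in which no identical fragment was shared between gates. About 1 in 20 such groups is picked out by chance.

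The replicates differed in the High minus Low value of exonic fragments (exact permutation p = 0.0397) and of KLF motif matches per kb (exact permutation p = 0.0238). These were the only 2 of 25 comparisons of the replicates with an unadjusted p under 0.05, and the p-values were not adjusted.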

How the results depend on the processing

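Labels here rest on the unadjusted p for the measures and on the adjusted threshold for genes and regions. Among the alternatives other than leaving out sorts or replicates, 74 results kept direction and side, 10 counts or values moved, 6 turned direction and 1 lost its p. With near copies collapsed, the difference beyond 100 kb was −0.131 percentage points and that in fragments per region −0.0152. Sharing of adjacent over distant gates was 1.10 as a share of joint fragments and 0.744 over regions. Persistence was 0.101 with Medium in place of High, −0.0549 for High against Medium and −0.0896 over different fragments of a region. The number of genes called was 0 with at least 50 fragments, 0 with limma, 0 with a gene's own dispersion, 0 with near copies collapsed, 2 without fragments of both gates, 2 for a trend over Low, Medium and High and 1 within 100 kb.

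Without the replicate block, 47 genes and 20 regions were called. For these the replicates of each stage were pooled, and High and Low were still compared within stages. For the measures and motifs the pairing by sort was dropped, and none of them changed its call (median length p = 0.215, under 150 bp p = 0.188, unpaired exact permutation). Neither was run for length within regions, sharing, persistence, recurrence or the gene lists. The Cochran-Mantel-Haenszel test called 1 region.

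Leaving out each sort or replicate in turn gave −34.4 to −14.2 bp for median length, 20.5 to 765 bp for distance, 5.50 to 8.63 points under 150 bp, −0.255 to 0.323 for GC content, −0.643 to 0.121 intronic, −0.314 to 0.646 exonic, −0.0530 to 0.212 intergenic, −0.201 to 0.249 beyond 100 kb, −0.0405 to 0.0455 fragments per region, −1.47 to 6.16 points with a neighbour, −8.64 to −2.64 bp within regions, −1.44 to 0.921 for sharing, 0.67 to 1.01 for persistence, −0.0879 to 0.0444 for recurrence, 0 to 7 genes and 0 to 2 regions. Without replicate 1, 3 genes were called, and without replicate 2, 0.

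Depth limits the results of replicate 2 most, where High libraries held 654 to 5931 fragments. No alternative used read counts, which the lists do not hold.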
